A study of Rattus norvegicus with 24 samples.

Results

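The genes followed here encode calcium channel subunits and calcium buffers in the rat supraoptic nucleus, the hypothalamic cell group that makes vasopressin and oxytocin. There are 9 of them, among 14217 genes that the array annotation names. Calb1 and Calb2 encode buffers, Cacna2d1, Cacnb3 and Cacnb4 encode auxiliary channel subunits, and Cacna1a, Cacna1b, Cacna1c and Cacna1d encode channel pores. Every probe set whose single gene symbol in the array annotation was one of these was taken, which gave 17 of the 31042 probe sets that are not controls.

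Affymetrix arrays were hybridised with RNA from Sprague Dawley rats, each array with the pooled nuclei of 5 animals. The dehydrated females had their water restricted for 72 hours but could eat freely (4 arrays used), and the control females were euhydrated (4 arrays). Dehydrated males had been dehydrated for 3 days (5 arrays) and control males had not (5 arrays); the males were 10 to 12 weeks old, and no age is given for the females. The labels name no transgene or drug. The 5 samples from rats on day 11 of lactation were not analysed here. The labels do not say whether arrays of a group held tissue of separate rats only, and the design text allows them as biological and as technical replicates, so p-values measure the spread between these pools. Sex changed together with RNA extraction, labelling and summary software between the 2 array sets, and these cannot be told apart. Levels are therefore compared only within a set.

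The supraoptic nucleus was recognisable on the 18 arrays used. Avp, the vasopressin gene, gave deposited signals of 3644 to 7666, and Oxt, the oxytocin gene, 3001 to 6698, on arrays scaled to a trimmed mean of about 100. The array titled CH2770, labelled as dehydrated female replicate 5, stood apart. It gave 50.6 for Avp and 26.0 for Oxt, a summed signal of 22705 for the oligodendrocyte markers against at most 9472 on the other female arrays, and a median Pearson correlation over probe sets of 0.815 with them, where the others correlated with each other at 0.925 to 0.973. It was left out, and the female changes of the members are also given with it.

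Voltage-gated calcium channels open when the membrane is depolarised. Their alpha1 subunit forms the pore and sets the channel type, while alpha2delta subunits outside the membrane and beta subunits inside the cell govern how many channels reach the surface and how they gate. Once inside, calcium is bound by EF-hand proteins such as calbindin and calretinin, which shape the size and duration of the calcium rise. In magnocellular neurons calcium entry triggers peptide release from axon terminals and dendrites, and it drives the afterpotentials that pattern their firing.

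Calb2 rose in dehydrated rats of both array sets, by 1.83-fold in females and 1.72-fold in males, and Cacna2d1 rose in dehydrated males, by 1.34-fold. No other member passed the test in either set, and none was called lower. Cacnb4 and some probe sets of other members were too dim to test. Calb1, the other buffer gene, had log2 changes of 0.11 and 0.02 in females and in males, neither past the threshold. Changes are log2 fold changes of dehydrated over control, on values rescaled to a trimmed mean of 500 with 32 added, which understates the change of dim probe sets, and errors are standard errors of the limma fit. A probe set was called at an adjusted p (Benjamini-Hochberg over all 21729 probe sets tested) under 0.05.

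Calb2 encodes calretinin, a calcium buffer that marks subsets of neurons across the brain. Its probe set, 1387133_at, gave signals of 878, 1044, 862 and 908 in dehydrated females and 547, 447, 532 and 478 in control females. In dehydrated males it gave 1211, 1261, 994, 1196 and 1149, against 631, 725, 619, 673 and 716 in control males. In each set every dehydrated array was above every control array. The gap between the lowest dehydrated and the highest control value was wider than the spread of either group in the female set, and in the male set it was as wide as that of the dehydrated group.

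The means were 923 ± 82.9 in dehydrated females and 501 ± 46.6 in control females (SD, n = 4 each), and 1162 ± 102 in dehydrated males and 673 ± 48.3 in control males (SD, n = 5 each). The log2 fold change was 0.87 ± 0.11 in females (limma adjusted p = 0.00213) and 0.78 ± 0.07 in males (limma adjusted p = 3.63e-06). The female effect minus the male effect was 0.09 ± 0.12 (95% interval -0.16 to 0.35; limma adjusted p = 0.877), so a difference between the sets was not shown, and 1 of more than 0.35 in favour of females or 0.16 in favour of males lay outside the interval. CH2770 gave 129 for Calb2, below all 8 other female arrays. With it, the female change was 0.32 ± 0.52 (limma adjusted p = 0.914), and the call was lost, as it was under none of the 17 other alternatives tried.

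Because the tissue is a block of many cell types, more calretinin cells and more Calb2 RNA per cell cannot be told apart, and the same holds for every change given here. The summed signal of the 7 magnocellular neuron markers on the array was 8736 to 16312 in dehydrated females and 8921 to 11008 in control females, and 12434 to 15982 in dehydrated males and 12987 to 16023 in control males. The ranges overlapped in each set. Most of this sum was Avp and Oxt, which read 7666 and 6698 on the dehydrated female array with the highest sum, so it says little about the other markers. The 5 GABAergic neuron markers summed to 674 to 848 in dehydrated females, below the 904 to 1073 of control females, and to 1194 to 1464 in dehydrated males and 1255 to 1955 in control males. None of either set's tested GABAergic markers passed the test. Of the magnocellular markers tested, 1 of 6 rose and 1 fell in each set. Of all probe sets tested, 1.77% rose and 1.19% fell in females, and 8.33% rose and 9.37% fell in males. Markers of other cells fell too, and none of theirs rose in either set. In females 4 of 9 oligodendrocyte markers, 2 of 10 of mural cells and meninges, 1 of 9 of astrocytes and 1 of 2 of blood fell. In males 9 of 10 markers of mural cells and meninges, 5 of 8 of microglia, 3 of 9 of astrocytes, 2 of 2 of blood, 2 of 4 of ependyma and choroid plexus and 2 of 6 of other hypothalamic neurons fell. Some summed signals were also wholly below those of controls. In females these were oligodendrocytes (3805 to 6579 against 6698 to 9472), microglia (787 to 971 against 1006 to 1258) and mural cells and meninges (1466 to 1808 against 2050 to 3038). In males they were blood (751 to 1070 against 1576 to 2154) and other hypothalamic neurons (1353 to 1806 against 1900 to 3849). The remaining sums overlapped. No marker was at 0 on all arrays. Their part in the rise of Calb2, and in the other changes given here, was not tested.

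Calb1 encodes calbindin, the other major neuronal buffer of this family, which magnocellular oxytocin neurons are known to contain. Its probe set 1370201_at gave 820, 921, 956 and 948 in dehydrated females and 810, 837, 814 and 915 in control females. The male arrays gave 660, 802, 672, 707 and 686 when dehydrated, and 710, 607, 745, 614 and 825 as controls. The groups overlapped in both sets, and the dehydrated males lay inside the range of their controls.

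The change of Calb1 was 0.11 ± 0.10 in females (95% interval -0.11 to 0.33; limma adjusted p = 0.593) and 0.02 ± 0.08 in males (95% interval -0.16 to 0.19; limma adjusted p = 0.919). A rise of the size seen for Calb2 in the same set lay outside both intervals. On CH2770 the signal was 62.1, against at least 810 on the 8 other female arrays, and with that array the female change was -0.64 ± 0.69 (limma adjusted p = 0.857).

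**Figure D1:**
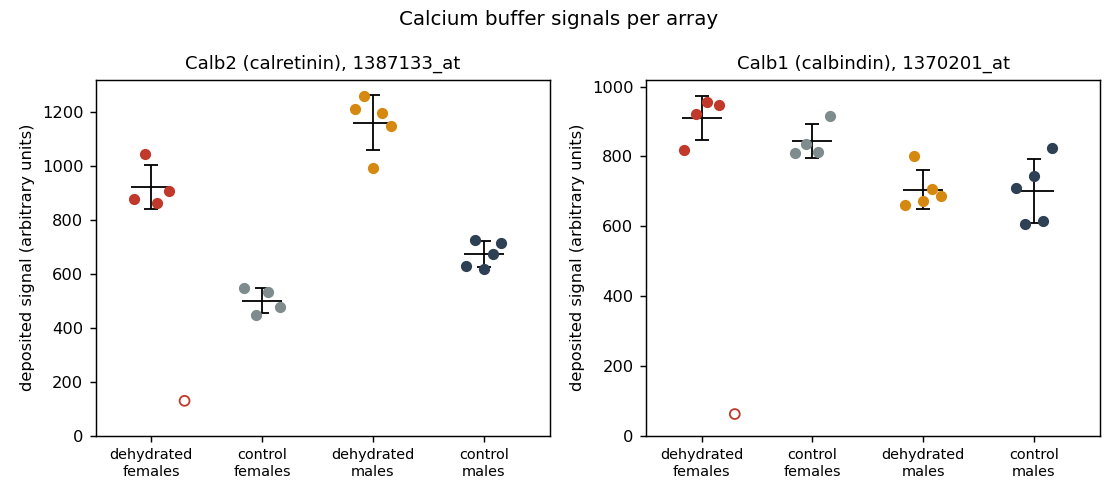
Deposited signal (arbitrary units, linear axis starting at 0) of the Calb2 and Calb1 probe sets on every array, by group; filled points are arrays used, the cross bars are the mean and SD, and the open point is CH2770, which was left out. Calb2 is separated between dehydrated and control arrays in both sets (862 or more against 547 or less in females, 994 or more against 725 or less in males), while the Calb1 groups overlap.

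Over the 18 arrays, with each set centred on its control mean, the genes whose pattern was closest to that of Calb2 were Slc41a2, a magnesium transporter, Msn, which encodes the membrane-to-actin linker moesin, and Ldha, lactate dehydrogenase A. Their root mean square differences were 0.14, 0.14 and 0.14 on the log2 scale, where the median over 9453 candidate genes was 0.64. Slc41a2 changed by 0.95 ± 0.10 in females and 0.88 ± 0.08 in males. Those closest to Calb1 were Slc35f5, a solute carrier gene, Gyg1, which encodes the glycogen primer glycogenin, and Atp2c1, a calcium and manganese pump of the Golgi. They differed from it by 0.09, 0.10 and 0.10, where the candidates' median was 0.26. These distances are descriptions over arrays that share their scaling, and carry no test.

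The channel genes were next compared, beginning with letters upstream of them. Dehydration is known to engage CREB family factors in this nucleus, and these bind the cyclic AMP response element (CRE), TGACGTCA, or its shorter core, TGACG. The RefSeq promoter table (GRCr8; 250 bases before to 50 after each start) held 8 starts of 6 members, with 3 for Cacna2d1, and Calb1, Calb2 and Cacnb4 were not among them. Searched on both strands, none of the 8 held the whole CRE or the AP-1 site TGANTCA, which 1.83% and 7.33% of the 33469 promoters in the table hold. The core, which every whole CRE contains, stood in 3 of the 8, and 21.2% of all promoters hold it. They are shown with 28 bases on each side, on the gene's strand, with the core in capitals, since Cacna2d1 is among them. They lie 68 bases before the start of Cacna1b (chr3:27944321-27944381, minus strand), 146 before that of Cacna1c (chr4:154051862-154051922, minus strand) and 177 before the start of Cacna2d1 that holds it (chr4:20330292-20330352, minus strand).
Cacna1b: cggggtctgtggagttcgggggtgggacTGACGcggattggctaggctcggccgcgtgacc
Cacna1c: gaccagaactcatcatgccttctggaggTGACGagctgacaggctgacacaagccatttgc
Cacna2d1: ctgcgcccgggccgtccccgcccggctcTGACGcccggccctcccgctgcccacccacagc
A match is a description of the letters and not a binding site. Of the 3 genes, Cacna2d1 rose in males, and the other pair passed the test in neither set.

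Cacna2d1 encodes alpha2delta-1, the auxiliary subunit that carries channels to presynaptic membranes and binds gabapentin. The probe set 1369649_at gave 244, 240, 200, 263 and 233 in dehydrated males and 170, 167, 138, 182 and 218 in control males. Of the dehydrated arrays 4 were above every control array, and 1 control lay above the lowest dehydrated one. In females it gave 505, 508, 723 and 341 when dehydrated and 335, 238, 377 and 443 in controls, so that 3 dehydrated arrays were above all controls and 1 lay among them.

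The male change was 0.43 ± 0.11 (1.34-fold, 95% interval 1.15 to 1.57; limma adjusted p = 0.0123). The female change was larger but less certain, at 0.55 ± 0.22 (1.47-fold, 95% interval 1.05 to 2.05; unadjusted p = 0.0279, limma adjusted p = 0.202), and did not pass. The effects differed by 0.13 ± 0.25, females minus males (limma adjusted p = 0.923). The male call was lost when all 4 groups were fitted together, at the same fold change (limma adjusted p = 0.107, the highest over 20 alternatives, the lowest being 0.00204), and with CH2770, which read 177, the female change was 0.26 ± 0.35 (limma adjusted p = 0.897).

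Cacnb3 encodes a beta subunit, the cytoplasmic partner that brings the pore to the surface. Its signals from 1387042_at were 120, 110, 141 and 127 in dehydrated females and 108, 134, 96.5 and 110 in control females. They were 227, 210, 222, 214 and 222 in dehydrated males and 192, 198, 227, 191 and 215 in control males. The groups overlapped in both sets.

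The changes of Cacnb3 were 0.14 ± 0.13 in females (limma adjusted p = 0.59; -0.09 ± 0.25 with CH2770) and 0.10 ± 0.07 in males (95% interval -0.05 to 0.24; limma adjusted p = 0.345). Cacnb4, another beta subunit, was too dim to test: 1371039_at gave 11.5 to 28.4 in dehydrated females, 9.44 to 19.7 in control females, 5.6 to 14.0 in dehydrated males and 7.3 to 14.2 in control males. It fell below the filter in both fits, which says nothing about whether it changed.

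Among the pores, Cacna1b encodes Cav2.2, the N-type channel, and Cacna1c encodes Cav1.2, an L-type channel. Probe set 1370444_at of Cacna1b gave 177, 177, 206 and 177 in dehydrated females and 201, 241, 221 and 252 in control females, with 1 dehydrated array above the lowest control. In dehydrated males it gave 190, 206, 165, 195 and 195, and in control males 172, 154, 184, 186 and 224, with the dehydrated arrays inside the range of the controls. The female change was -0.30 ± 0.11 (unadjusted p = 0.0192, limma adjusted p = 0.168) and the male change 0.05 ± 0.09 (limma adjusted p = 0.747).

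Of all members this probe set had the smallest p for the difference between the sets, -0.35 ± 0.14 for females minus males, which did not pass over all probe sets (unadjusted p = 0.0221, limma adjusted p = 0.402). The other Cacna1b probe set, 1371175_a_at, was dim (26.9 to 44.3 in dehydrated females, 27.5 to 48.2 in control females, 16.7 to 54.8 in dehydrated males and 26.6 to 37.7 in control males). It gave 0.06 ± 0.21 in females and 0.15 ± 0.21 in males (0.38 in males without dehydrated male replicate 3), so the 2 probe sets of the gene had opposite signs in females and neither passed. With CH2770 the female changes were -0.46 ± 0.19 for 1370444_at and -0.16 ± 0.31 for 1371175_a_at.

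Probe set 1370452_at of Cacna1c gave 61.6, 68.3, 78.3 and 68.7 in dehydrated females and 81.7, 97.2, 88.0 and 92.9 in control females. Every dehydrated female array was below every control, with a narrow gap between 78.3 and 81.7. In dehydrated males it gave 63.4, 67.5, 53.0, 68.5 and 60.3, inside the 58.1, 49.1, 70.2, 82.0 and 69.0 of control males. The female change of -0.35 ± 0.13 did not pass (unadjusted p = 0.0163, limma adjusted p = 0.156), and the male change was -0.05 ± 0.13 (limma adjusted p = 0.822). With CH2770 the female change was -0.34 ± 0.14. The other Cacna1c probe set, 1370451_a_at, was below the filter in both sets, with 14.3 to 24.3 in dehydrated females, 8.29 to 19.7 in control females, 4.7 to 19.8 in dehydrated males and 7.1 to 24.0 in control males.

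Cacna1a encodes Cav2.1, the P/Q-type channel of most central synapses. Most of its 5 probe sets were dim, on female arrays with median signals of 39.7 to 46.5. The brightest, 1398459_at, gave 45.9 to 56.1 in dehydrated females and 40.5 to 46.5 in control females. In dehydrated males it gave 24.6 to 59.8 and in control males 27.6 to 37.6. Its changes were 0.20 ± 0.14 in females and 0.24 ± 0.19 in males. Probe set 1395062_at gave 23.0 to 42.8 in dehydrated females, 24.8 to 40.5 in control females, 27.8 to 42.1 in dehydrated males and 24.7 to 33.5 in control males, and changed by 0.04 ± 0.22 in females and 0.17 ± 0.14 in males. The third, 1367821_a_at, gave 15.7 to 42.9 in dehydrated females, 24.4 to 43.0 in control females, 8.7 to 16.8 in dehydrated males and 10.8 to 15.8 in control males. It was tested in females alone, with a change of -0.38 ± 0.27. None passed, and the probe sets of this gene differed in sign. With CH2770 the female changes were 0.31 ± 0.18 for 1398459_at, 0.14 ± 0.24 for 1395062_at and -0.24 ± 0.31 for 1367821_a_at.

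Another pair of Cacna1a probe sets was below the filter in both sets and not tested. Of these 1367822_at gave 14.3, 4.82, 2.83 and 2.74 in dehydrated females and 15.4, 25.9, 14.6 and 16.4 in control females, so that the female groups did not overlap, by a gap of 14.3 to 14.6. It gave 3.1 to 17.6 in dehydrated males and 3.6 to 12.0 in control males. The other, 1386939_a_at, overlapped in both sets, with 12.4 to 24.2 in dehydrated females, 9.44 to 25.7 in control females, 1.9 to 20.5 in dehydrated males and 4.4 to 12.5 in control males.

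Cacna1d encodes Cav1.3, an L-type channel that opens at lower voltages. The probe set 1369086_a_at gave 24.5 to 44.5 in dehydrated females, 26.6 to 58.5 in control females, 22.7 to 31.1 in dehydrated males and 26.4 to 38.4 in control males. Its changes, -0.30 ± 0.24 in females and -0.23 ± 0.13 in males, did not pass (limma adjusted p = 0.523 and 0.241). With CH2770 the female change was -0.12 ± 0.29. Below the filter in both sets, 1370637_at gave 13.3 to 22.8 in dehydrated females, 3.8 to 21.8 in control females, 9.8 to 14.2 in dehydrated males and 1.7 to 14.8 in control males. Also below it, 1370640_a_at gave 4.15 to 20.8 in dehydrated females, 4.81 to 20.6 in control females, 1.6 to 16.3 in dehydrated males and 2.0 to 8.4 in control males. The groups of both overlapped in each set.

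**Figure D2:**
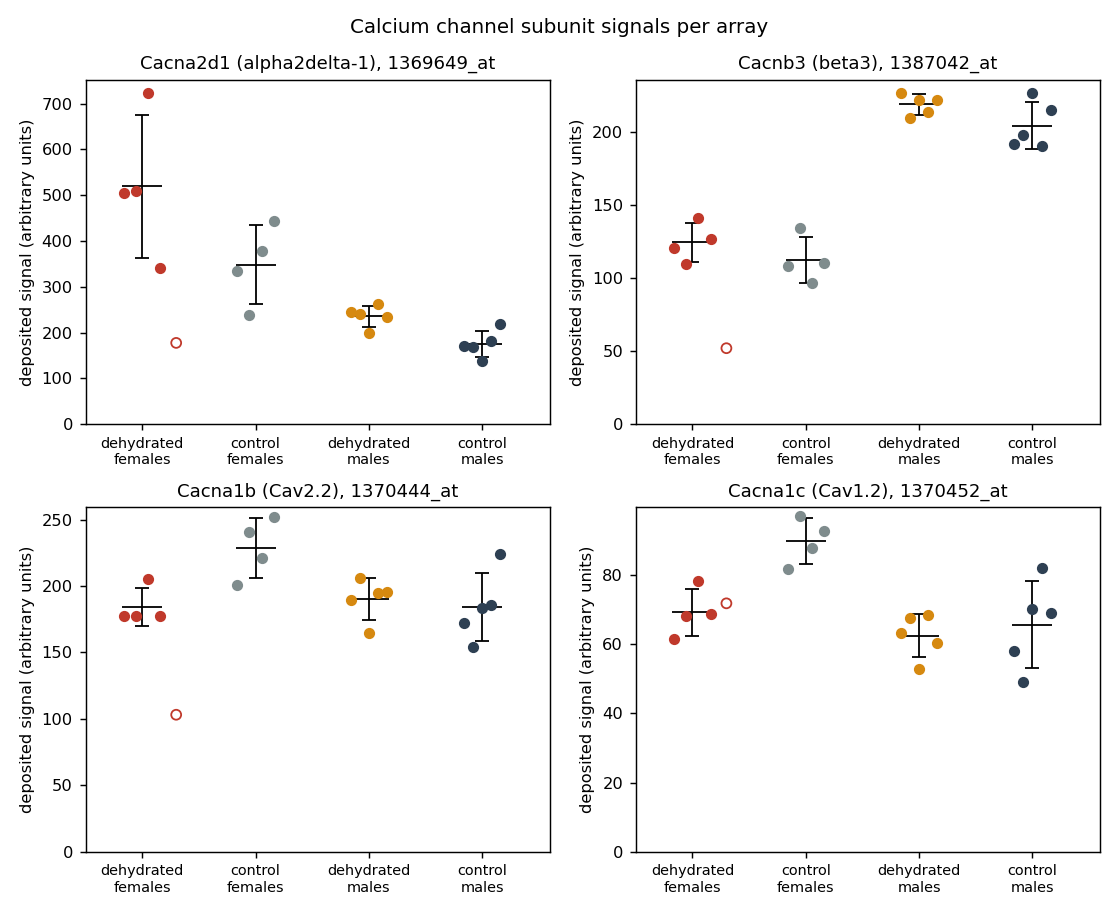
Deposited signal (arbitrary units, linear axes starting at 0) on every array of the brightest probe set of Cacna2d1, Cacnb3, Cacna1b and Cacna1c, by group, with mean and SD as cross bars; open points are CH2770. Cacna2d1 is higher in dehydrated males with 1 control inside their range, and Cacna1c is the panel in which the dehydrated and control females do not overlap, at 78.3 or less against 81.7 or more.

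Over the whole set of members, 11 of the 17 probe sets were bright enough to be tested in females and 10 in males, in each case covering 8 of the 9 genes. The 6 left out in females had signals of 2.74 to 28.4 and the 7 left out in males 1.6 to 24.0. In females limma called 1 of 11 higher, where 1.77% of all probe sets tested were called higher, and 0 lower, where 1.19% were, and without adjustment 2 were higher and 2 lower at a p under 0.05. In males it called 2 of 10 higher, against 8.33% of all, and 0 lower, against 9.37%, and without adjustment 2 were higher and 0 lower at that threshold. The share of all probe sets under the unadjusted threshold was not counted. The unadjusted counts here and below therefore have no baseline, and nothing is read from them. The members were also chosen with earlier results of these data known, so no excess is read from the adjusted shares.

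Counted by groups that did not overlap, among the probe sets tested, 1 member probe set was higher in dehydrated females (5.33% of all), 1 lower in dehydrated females (6.96%), 1 higher in dehydrated males (6.86%) and 0 lower (5.89%). The difference between the sets was called by limma for 0 of 11 members, where 0.0322% of all were called, and for 1 member without adjustment. The median change of the members tested was 0.06 in females, where that of all probe sets was -0.03, and 0.13 in males, where it was -0.04. Probe sets of 1 gene share transcripts and are not independent of each other. The choice of the members limits these shares and medians in the same way.

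Apart from Calb2 and Cacna2d1, changes of the tested members lay between -0.38 and 0.20 in females and between -0.23 and 0.24 in males. Single arrays moved these limits, to -0.63 for Cacna1a 1367821_a_at without dehydrated female replicate 2, and in males to 0.37 for Cacna1a 1398459_at without dehydrated male replicate 2 and to 0.38 for Cacna1b 1371175_a_at without dehydrated male replicate 3. Cacna1d 1369086_a_at in females gave -0.52 without control female replicate 2. The upper limit of females moved to 0.24 for Cacna1a 1398459_at without dehydrated female replicate 3. The lower limit of males moved to -0.31 for Cacna1d 1369086_a_at without control male replicate 2. None of these passed. The interval that reached lowest went to -0.98, for Cacna1a 1367821_a_at in females. Those of the gene's other tested probe sets reached -0.44 (1395062_at) and -0.11 (1398459_at) in females. At this number of arrays changes of moderate size in dim probe sets such as 1367821_a_at were not detectable. With CH2770 added, 0 members were called in females, and limma called 1 probe set of all. Of the 17 member probe sets CH2770 was below the range of the other 8 female arrays in 6, within it in 4 and above it in 7.

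**Figure D3:**
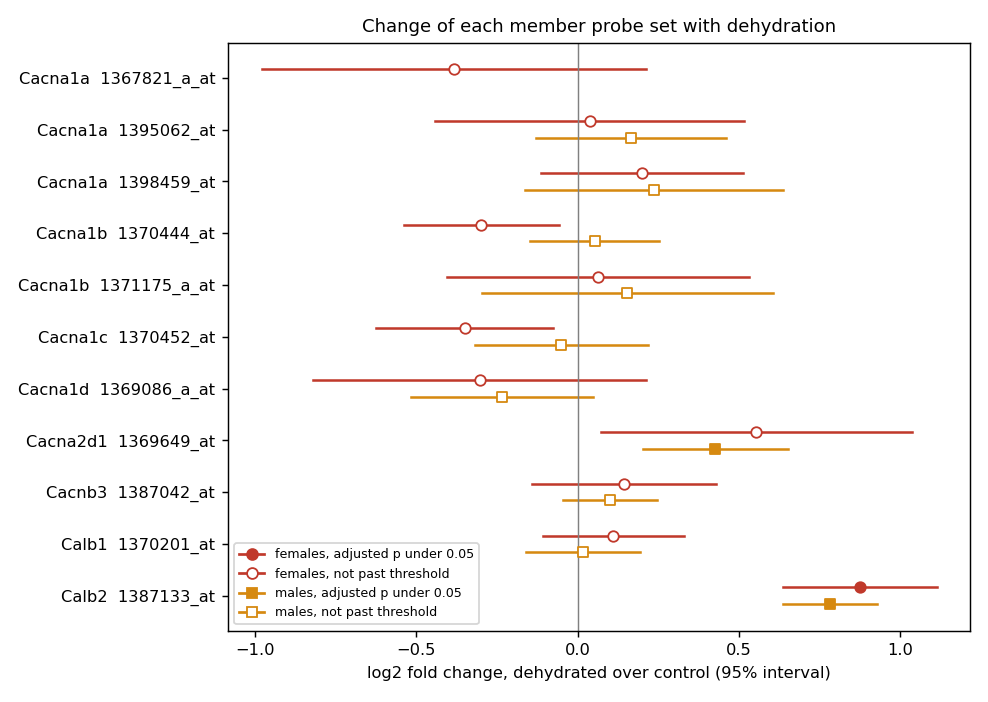
Log2 fold change of dehydrated over control (x axis) with its 95% interval for each member probe set tested (y axis), in females (circles) above males (squares); filled symbols passed an adjusted p under 0.05. Calb2 is filled in both sets at 0.87 and 0.78, Cacna2d1 in males at 0.43, and the other intervals of males cross 0. Among the unfilled female intervals, those of Cacna2d1 (0.07 to 1.04), Cacna1b 1370444_at (-0.54 to -0.06) and Cacna1c 1370452_at (-0.62 to -0.08) do not cross 0. The intervals are not adjusted for the number of probe sets.

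Calcium handling outside the 9 genes was read from 7 further lists with 99 genes, of which 91 were on the array; a gene was represented by its brightest probe set. In females 2 of 76 tested rose (2.63%) and 2 fell (2.63%), where 1.77% of all probe sets rose and 1.19% fell. In males 11 of 75 rose (14.7%) and 4 fell (5.33%), where 8.33% of all rose and 9.37% fell. The shares of all cover every probe set tested, dim ones included, while each list gene had only its brightest probe set. The lists were also written with earlier results of these data known. The shares are thus not like for like, and no excess is read from them. The median change over these genes was 0.04 in females and 0.03 in males, where those of all probe sets were -0.03 and -0.04. The difference between the sets was called by limma for 0 of 77, and for 6 without adjustment at a p under 0.05, again with no share of all probe sets beside it. With CH2770 kept, 0 of these genes were called in females.

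The genes that passed in the same direction in both sets were Stac, Rem2 and Hpcal4. Stac, whose product binds L-type channels and slows their inactivation, gave 83.5, 93.0, 96.5 and 107 in dehydrated females and 61.5, 41.7, 50.6 and 58.0 in control females. In dehydrated males it gave 93.9, 79.2, 80.8, 102 and 86.0, and in control males 33.2, 44.6, 54.7, 42.3 and 61.7. The groups did not overlap in either set, and Stac (1383032_at) rose by 0.78 ± 0.15 in females (limma adjusted p = 0.0177) and 0.84 ± 0.14 in males (limma adjusted p = 0.000836).

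Rem2, a small GTP-binding protein that binds beta subunits and inhibits channels, was dim: 53.1, 46.3, 25.3 and 37.2 in dehydrated females and 8.72, 12.0, 19.5 and 6.45 in control females. Dehydrated males gave 15.7, 41.8, 29.9, 29.2 and 38.1 and control males 16.7, 4.2, 6.1, 21.8 and 21.4. The female groups were apart and the male groups overlapped. Its control means, 11.7 in females and 14.0 in males, lay below the cutoff of the filter in each set. It was therefore tested only because its dehydrated arrays were brighter, and its calls are descriptions of a gene picked that way. Rem2 (1374035_at) rose by 1.39 ± 0.28 in females (limma adjusted p = 0.0264) and 0.94 ± 0.29 in males (limma adjusted p = 0.0387).

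Hpcal4, a neuronal calcium sensor of the visinin-like family, gave 192, 176, 213 and 118 in dehydrated females and 330, 250, 394 and 328 in control females. It gave 223, 219, 218, 200 and 202 in dehydrated males and 375, 235, 263, 234 and 257 in control males. Each dehydrated array was below each control of its set, and Hpcal4 (1379907_at) fell by 0.89 in females (SE 0.18, limma adjusted p = 0.0264) and by 0.33 in males (SE 0.11, limma adjusted p = 0.046).

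By list, the counts are small and stand, with the same limits, against those shares of all probe sets. The shares were 1.77% higher and 1.19% lower in females, and 8.33% higher and 9.37% lower in males. The channel-binding regulators, which include Stac and Rem2, had 2 of 10 higher in females and 4 of 10 higher in males, and none lower in either. Rem2 is in both counts, though it was tested only through its dehydrated arrays. In the other EF-hand buffers and sensors 0 of 14 rose and 1 fell in females, and 2 of 14 rose and 2 fell in males. Of the calcium pumps and exchangers 0 of 14 rose and 1 fell in females, and 2 of 14 rose and 1 fell in males. The smallest p-values of that list belonged to Atp2b3, a plasma membrane calcium pump, which fell by 0.73 in females (SE 0.14, limma adjusted p = 0.0198), and to Slc8a1, a sodium-calcium exchanger, which rose by 0.39 ± 0.07 in males (limma adjusted p = 0.00247). In the other set Atp2b3 gave -0.27 ± 0.13 and Slc8a1 0.22 ± 0.14, neither past the threshold.

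Among genes of calcium release and store entry 0 of 13 passed limma's test in females (5 without adjustment), and in males 2 of 14 rose and 1 fell. Calr, which encodes the calcium-binding chaperone calreticulin of the endoplasmic reticulum, rose by 0.40 ± 0.05 in males (limma adjusted p = 0.000225), and its female value of 0.35 ± 0.14 did not pass (limma adjusted p = 0.197). Ryr2, a ryanodine receptor, had the smallest p of this list in females, at -0.57 ± 0.18 (limma adjusted p = 0.114). Of the calcium-dependent kinases and the phosphatase, 0 of 15 passed in females (3 without adjustment) and 1 of 15 rose in males. That gene was Camk1, a calcium- and calmodulin-dependent kinase, at 0.34 ± 0.09 (limma adjusted p = 0.0147), and Camkk1, a kinase that activates it, had the smallest p in females, at -0.84 ± 0.22 (limma adjusted p = 0.0652).

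The remaining channel subunits gave no call by limma, with 0 also without adjustment. Of the other alpha1 pores 2 of 6 genes were bright enough to test in each set, and the smallest p-values were those of Cacna1h, a T-type pore, in females (-0.29 ± 0.21) and Cacna1i, another T-type pore, in males (-0.23 ± 0.22). Of the other auxiliary subunits 8 were tested in females and 6 in males, led by Cacna2d3 in females (-0.25 ± 0.13) and Cacng7 in males (0.37 ± 0.18). At an adjusted p these 4 genes lay between 0.173 and 0.526. Cacng7 was not tested in females. Its mean in control males, 14.8, lay below the cutoff of the filter, and that in dehydrated males was 21.4. Like Rem2, it was therefore tested only because its dehydrated arrays were brighter, and its value is a description.

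**Figure D4:**
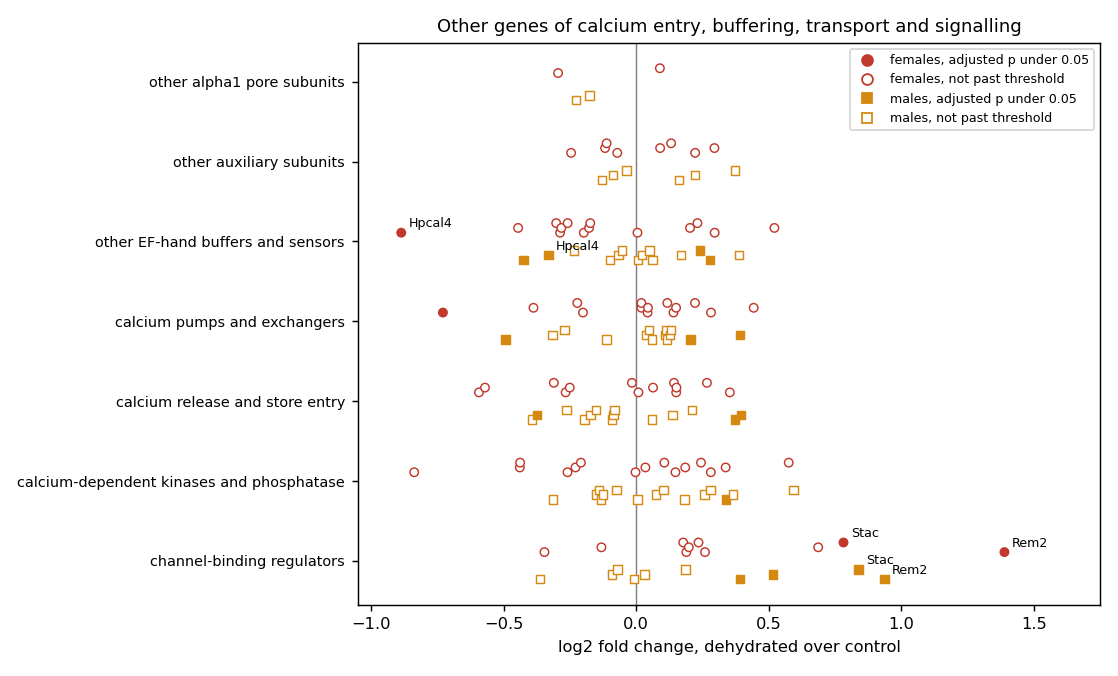
Log2 fold change of dehydrated over control (x axis) of each gene tested in the 7 other calcium lists (rows), females as circles above males as squares, filled where the adjusted p was under 0.05; vertical scatter within a row only separates points. Rem2 and Stac are filled on the right in both sets (1.39 and 0.78 in females, 0.94 and 0.84 in males) and Hpcal4 on the left in both (-0.89 in females and -0.33 in males).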

How the data were processed

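The authors deposited 1 linear intensity value per probe set and array, made with GCOS 1.2 for male arrays and MAS5 for female arrays, per the submitters' processing notes; in the table each array has a 2% trimmed mean of about 100. Background and summary settings are not given in the sources used here. Per the labels, male RNA was isolated in QIAzol, cleaned on RNeasy columns and amplified by an Ambion kit, and female RNA was isolated by Trizol and labelled by the Affymetrix protocol. Signals are printed as deposited.

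Symbols came from the platform annotation, updated by Entrez ID: 20826 probe sets had 1 symbol, 436 several and 9780 none. The 57 control probe sets were left out. Values were rescaled to a trimmed mean of 500, transformed as log2(value + 32), where 32 equals 6.4 deposited units, and kept where their mean was above the 30th percentile of a fit. Dehydration was tested within each set, and the difference between sets over all 18 arrays, with limma 3.58.1 (lmFit, eBayes with trend) in R 4.3.3. No 2 arrays held identical values. The number of arrays limits precision: the median SE was 0.17 in females and 0.12 in males. The fits were also run on simulated data with independent noise, which has no effects shared within an array, and no result here rests on that run. Figures were drawn with matplotlib 3.10.9.

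All member probe sets are given. Of the 7 calcium lists the genes called alike in both sets are named, or else the smallest p of a list, and for Calb1 and Calb2 the 3 genes with the nearest pattern. Members and lists were chosen with earlier results of these data known. Alternatives were another normalization, offset, filter or variance model, array weights, CH2770 kept, 1 fit with all groups, a replicate block and each array left out.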

Additional observations from a re-analysis of the deposited data

Results flagged for a closer look

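In 2 of 42 member groups of 4 or 5 arrays, 1 array lay apart from the rest by Dixon's 95% criterion, which chance meets in about 1 of 20 groups (5%). The ratios were taken on the log2 values of the fits and not on the deposited signals printed here. For Cacna1b 1370444_at in dehydrated females the highest array read 206 and the other 3 each read 177 to the nearest unit, so the gap took 0.994 of the whole range. For Cacna1a 1395062_at in dehydrated females the lowest array read 23.0, the next 39.2 and the highest 42.8, a gap of 0.853 of the range.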

How the results depend on the processing

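Calb2 was called in males under all 20 alternatives, and in females under 17 of 18, the exception being CH2770 kept. Leaving out single arrays gave 1 called member in females, 2 in males and 0 for the difference each time. With CH2770 kept, 0 members were called in females, and signs turned for Calb1 (-0.64), Cacnb3 (-0.087) and Cacna1b 1371175_a_at (-0.16) in females, and in females minus males for Calb1 (-0.65), Calb2 (-0.46) and Cacna2d1 (-0.17). In 1 fit with all 4 groups 1 member was called in males, Cacna2d1 being lost. Values near 0 also turned sign. In males quantile normalization gave 0.027 for Cacna1c 1370452_at and -0.061 for Calb1, and centring on the median gave 0.026 for Cacna1c. Single arrays left out gave ranges of -0.10 to 0.21 for Cacna1a 1395062_at and -0.025 to 0.21 for Cacna1b 1371175_a_at in females, and in males of -0.0063 to 0.12 for Cacna1b 1370444_at, -0.14 to 0.027 for Cacna1c and -0.032 to 0.078 for Calb1, and for Cacna2d1 in females minus males of -0.046 to 0.31. None of these passed the test, and the cause was not tested.

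Over all probe sets, 642 were called in females (384 higher, 258 lower), against 211 to 881 with single arrays left out, 290 without the variance trend, 1704 with array weights, 2321 in the fit with all 4 groups and 1 with CH2770. In males 3844 were called, against 2268 in the fit with all 4 groups. For the difference 7 were called, against 1 to 55 with single arrays left out (55 without dehydrated female replicate 3, 40 without control female replicate 2), 114 with array weights and 0 with CH2770.

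With the title's last digit as a replicate block in males, 2 members were called and 3616 probe sets in all. Deviations of arrays sharing a digit correlated at -0.12 to 0.14, and 1 of 5 dehydrated arrays matched best the control of its own digit. No pairing by the digits was seen, but so few arrays cannot show that the samples were not paired.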
